A study of Bos taurus with 48 samples.

Results

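The genes described here are those of the circadian clock, followed in cattle skeletal muscle from fetal life to 30 months of age and through a diet trial. A gene was taken when the name or the symbol in brackets that the array files give a probe was one of ARNTL, CLOCK, PER1, PER2, PER3, CRY1, CRY2, NR1D1, NR1D2 and DBP. Of these 10 genes, 9 had a probe, 1 each, and all 9 were among the 14857 genes tested. NR1D1 had no probe under that name and was not analysed here.

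Longissimus muscle RNA of 35 animals was hybridised to 48 arrays with 2 dyes, so each array carried 2 animals. In the developmental series a Piedmontese × Hereford animal shared each array with a Wagyu × Hereford animal, at 60, 135 and 195 days of gestation, at birth, and at 3, 7, 12, 20, 25 and 30 months. The diet series used Belmont Red cattle, 4 on a restricted diet (called weight loss in the labels) and 4 on a growth diet, at times 0, 1 and 2; the study describes it as deprivation followed by re-alimentation, and the labels give the times only as numbers. Piedmontese cattle carry a myostatin mutation and are heavily muscled, while Wagyu cattle are known for fat within the muscle. The fetuses and calves were different animals at each time point: 2 animals at 60 days (1 per cross, each on 3 arrays), 5 at 135 days, 5 at 195 days and 6 at birth. After birth 9 animals were biopsied, 8 of them at more than 1 age, with 8 animals at each age except 12 months, which had 6. The diet series had 8 animals at time 0, 7 at time 1 and 4 at time 2.

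The hour at which the muscle was taken is not given in the labels. Clock transcripts rise and fall within a day, so a difference between time points cannot be told apart from a difference in the hour of sampling, and this holds for every change over time below. Crosses and diets were set against each other on the same arrays at the same time point, but whether both arms were sampled at the same hour is not given either. In bulk muscle a change in cell composition and a change in RNA per cell cannot be told apart.

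The clock is a loop of transcription and repression that runs with a period of about a day in nearly every cell, muscle fibres included. ARNTL (also called BMAL1) and CLOCK are transcription factors that pair and switch on genes carrying E-box sequences. Among these genes are the period genes PER1, PER2 and PER3 and the cryptochromes CRY1 and CRY2, whose proteins return to the nucleus and block the pair that made them. The nuclear receptor NR1D2 (REV-ERB beta) represses ARNTL and closes another loop, and DBP is a transcription factor driven directly by ARNTL and CLOCK that carries the rhythm to other genes. In many tissues ARNTL therefore peaks in a different part of the day from the period genes, NR1D2 and DBP.

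The array reads each gene through a probe of 60 bases, spotted 2 times. The first 30 bases are shown for the 5 genes on which the results turn most, as the array files list them.
ARNTL: taatcattgtgcacagaagcatcattggta
PER2: gctcaagccagactttcttcacccagtgct
PER3: catgctgtgtgaatggaatcattttacaat
CRY2: ttgctagaaagtgtgtttctcccacagttt
NR1D2: cgcttatactcaacgagcgtgcgatagagt
No pair of the 9 full probes shared a run of more than 8 bases, the period and cryptochrome probes included. For 6 of the 9 genes the gene number or transcript in the files led to the same symbol in RefSeq, whereas CLOCK, PER2 and PER3 were named by the array's own description of an expressed sequence tag. Levels below are log2 intensities after normalization, where a difference of 1 is a factor of 2 in intensity, and they are compared between samples of a gene and never between genes.

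ARNTL, CLOCK, PER1, PER2, CRY1, CRY2 and DBP were well above background in all 96 array channels, and none of the 9 was saturated in any channel. PER3 and NR1D2 were dim, each well above background in 82 of 96 channels. NR1D2 reached that level in 6 of 18 prenatal channels (0 of 6 at 60 days) and in 47 of 48 after birth. PER3 did so in 18 of 18 prenatal channels, 1 of 6 at birth, 39 of 48 after birth and 3 of 8 at 30 months. The offset added to the intensities shrinks the changes of dim probes, so values of these 2 genes are small on this scale and their lowest levels are near background. A further probe described as similar to period homolog 3 did not meet the rule and was well above background in 5 of 96 channels.

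The fetus samples were not all alike. In 1 Piedmontese fetus of 135 days the muscle actin gene ACTA1 was at 10.02, against 16.73 to 17.58 in the other 4, and the fat cell gene FABP4 was at 16.56, against 9.03 to 11.63. CRY1 and CRY2 were lower in that fetus than in the other 4, at 10.27 and 11.66 against lowest values of 11.16 and 12.28. PER2 (10.64) and NR1D2 (6.78) were also its lowest of the 5, and PER1 (14.97) and DBP (12.40) its highest. Leaving this fetus out changed the call of 1 clock gene in the comparisons that use this age, DBP between fetal and post-natal ages, as given below. Over all arrays 51.1 to 78.9% of probes per channel were well above background, and 7 of 8 listed muscle fibre genes were on the array and tested.

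**Figure D1:**
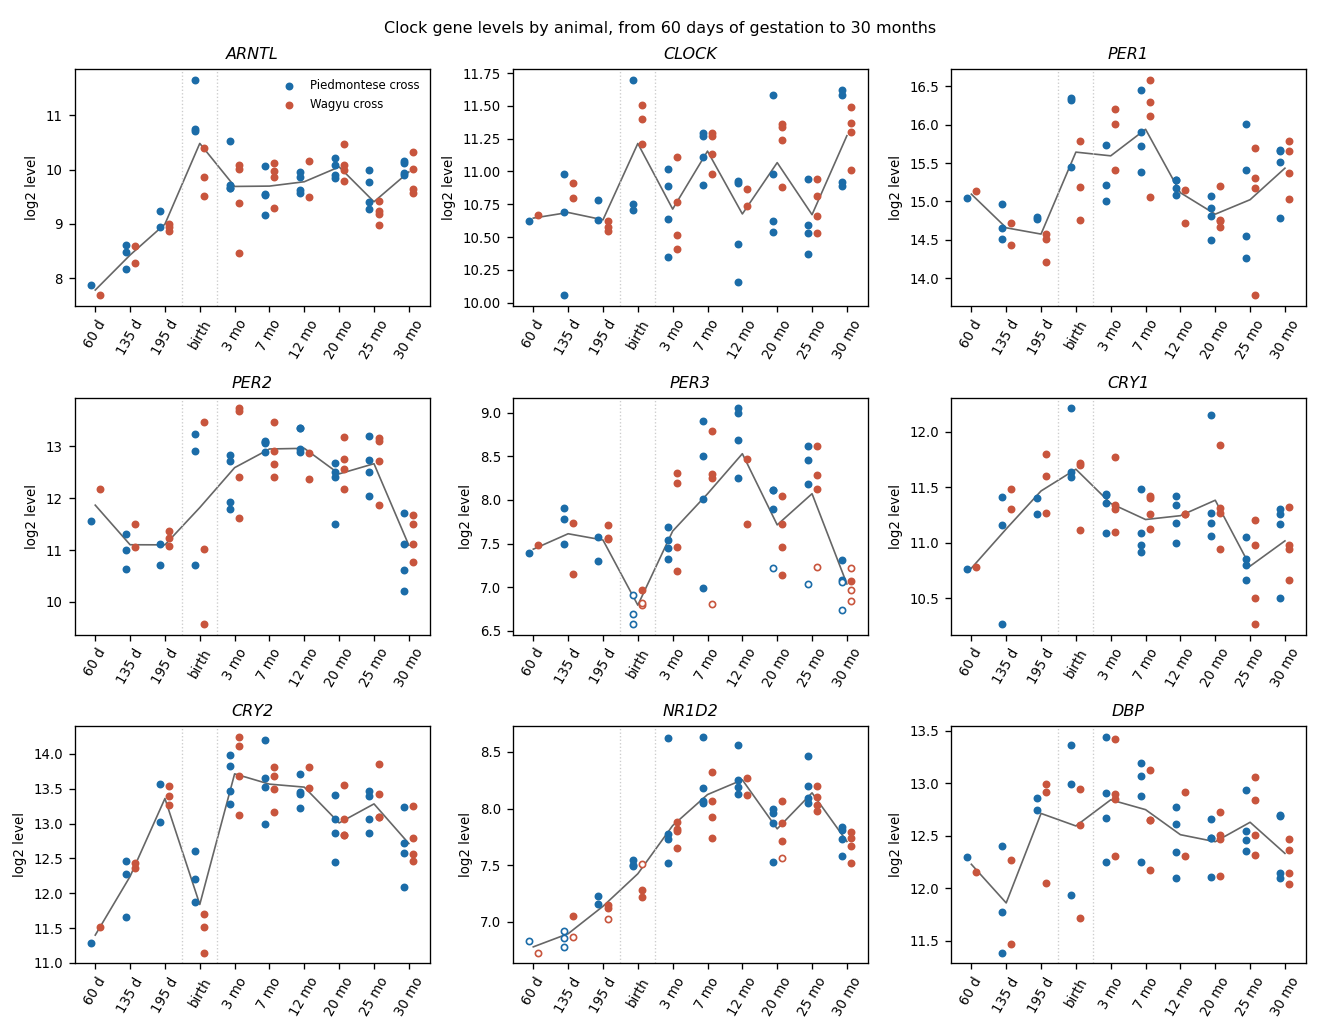
Level of each clock gene (log2 intensity, vertical axis) in each animal at 10 time points (horizontal axis; d, days of gestation; mo, months of age), with a point for each animal (blue, Piedmontese cross; red, Wagyu cross), hollow where no channel of that animal was well above background, and a grey line through the means of all animals. ARNTL climbed from a mean of 7.78 at 60 days to 10.48 at birth, while CRY2 dropped from 13.36 at 195 days to 11.84 at birth and PER2 fell to 11.09 at 30 months.

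The first question was how the clock genes of fetal muscle compare with those of muscle after birth. ARNTL, NR1D2, PER2, CRY2, PER1 and CLOCK were higher in the 6 post-natal ages than in the 3 fetal ages, and none was called as lower. The fetal and the post-natal arrays were on different slides, so slide and stage cannot be told apart in this comparison. Of all genes tested, 79.1% were called in this comparison, 40.6% as higher and 38.4% as lower after birth, so 6 of 9 called is no more than the background, and the direction is a description of these 9 genes. All calls are limma tests with Benjamini-Hochberg adjusted p below 0.05 over the 14857 genes, with animal as a random block. The median difference of the 9 genes was 0.51 and that of all genes was 0.03.

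ARNTL, the partner of CLOCK, had the largest fitted difference of the 9 on this scale, though not on the processed signals, where NR1D2 did. Its level was 7.69 and 7.87 in the 2 fetuses of 60 days, 8.17 to 8.61 (median 8.48) at 135 days and 8.86 to 9.24 (median 8.95) at 195 days. After birth the means of the 6 ages were 9.41 to 10.05. The fetal and post-natal animals overlapped only slightly, since the lowest animals at 3, 7 and 25 months were at 8.46, 9.17 and 8.97. The post-natal ages exceeded the fetal ages by 1.36 ± 0.15 (SE; adjusted p = 1.33e-11), a factor of 2.56.

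PER2, a repressor of the loop, was higher after birth by 1.07 ± 0.26 (adjusted p = 0.000226). Its highest fetal value was 12.17, at 60 days, and its means after birth were 11.09 at 30 months and 12.47 to 12.96 at the other 5 ages. The level at 30 months was thus like that of the fetuses, whose means were 11.10 to 11.87. PER1 was higher by 0.51 ± 0.18 (adjusted p = 0.0107), and by 1.18 with channels only centred on their medians (adjusted p = 5.31e-05), where the median of all genes was at 0.13. PER3 differed by 0.27 ± 0.19 (adjusted p = 0.183).

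CRY2 was higher by 0.94 ± 0.13 (adjusted p = 1.17e-08), a difference that fell to 0.47 without the 60-day fetuses (adjusted p = 0.00149). CRY1, the other cryptochrome, differed by 0.03 ± 0.13 (adjusted p = 0.849, 95% interval -0.24 to 0.30). NR1D2 was higher by 1.05 ± 0.08 (adjusted p = 1.71e-17), and by 3.34 on the processed signals, which carry no offset; most of its fetal channels were near background. CLOCK was higher by 0.26 ± 0.10 (adjusted p = 0.0181), which did not hold when each channel was only centred on its median (0.11, adjusted p = 0.649). DBP, the output factor, differed by 0.33 ± 0.16 (adjusted p = 0.0583), and was called without the fetus low in muscle genes (0.37, adjusted p = 0.027) and with array number as a block (0.30, adjusted p = 0.00266).

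Other genes of the clock also differed, at a share near that of all genes. The list of further clock regulators had 20 genes, 19 on the array and 15 tested. Of these, 11 were higher after birth and 2 lower, 13 of 15 called beside 79.1% of all genes, with a median difference of 0.69. BHLHE41 and BHLHE40, repressors that compete for E-boxes, were higher by 3.11 ± 0.14 and 2.44 ± 0.21, and HLF, a relative of DBP, by 1.43 ± 0.09. TIMELESS, which acts at the replication fork, was lower after birth (-0.73 ± 0.10), as was CSNK1E, a kinase of the period proteins (-0.69 ± 0.09). Of 10 genes listed as clock outputs, 8 were higher and 1 lower (median 1.74), among them UCP3 at 6.64 ± 0.23 and PDK4 at 4.82 ± 0.41, both genes of fatty acid use. The markers of other cells differed as well. All 3 tested genes of dividing cells and all 6 fibroblast genes were lower after birth (medians -2.46 and -2.64), and 6 of 7 muscle fibre genes were higher (median 1.38). All 5 fat cell and all 5 leukocyte genes were higher (medians 1.22 and 1.06), both haemoglobin genes were lower (median -4.87), and of 5 endothelial genes 4 were lower and 1 higher. The part of these cells in the clock gene differences was not tested.

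The fetal period itself had few called steps. From 60 to 135 days, 1 of 9 clock genes was called, against 15.7% of all genes: CRY2 rose by 0.87 ± 0.29 (adjusted p = 0.0277), or by 0.99 without the fetus low in muscle genes, and was not called without array 1 or 3 of each time point (adjusted p = 0.0722 and 0.0879). With channels only centred, 30.7% of the calls in this step were upward rather than 48.3%, and on the processed signals 61.4%. From 135 to 195 days, 2 of 9 were called, against 23.4%. CRY2 rose again, by 1.08 ± 0.22 (adjusted p = 0.000197), and its 5 values at 195 days (13.02 to 13.57) lay above all 5 at 135 days (11.66 to 12.46). DBP rose by 0.87 ± 0.26 (adjusted p = 0.012), but by 0.44 (adjusted p = 0.429) without array 1, and by 1.01 without the fetus low in muscle genes. With channels only centred CRY2 was at 0.63 and 1.03 in the 2 steps (adjusted p = 0.689 and 0.233) and DBP at 0.81 from 135 to 195 days (0.56), none of them called. ARNTL changed by 0.65 ± 0.32 and 0.59 ± 0.25 over these steps (adjusted p = 0.19 and 0.0771). It was called in both with array number as a block (0.0303 and 0.0176), a fit in which an animal on several arrays enters more than once. Values of ARNTL did not overlap between 60, 135 and 195 days, nor did those of CRY2. Those of PER1 and PER2 did not overlap between 60 and 135 days. At 60 days there were only 2 animals, and the share of all genes that separate in this way was not counted.

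Between 195 days and birth 65.7% of all genes were called, 34.9% up and 30.8% down. Of the 9 clock genes, 4 rose and 2 fell, a share near that of all genes. ARNTL rose by 1.47 ± 0.23 (adjusted p = 3.78e-07) and CLOCK, its partner, by 0.57 ± 0.16 (adjusted p = 0.00188). The 6 newborns had ARNTL levels of 9.52, 9.86, 10.40, 10.72, 10.74 and 11.66, all above the highest fetus of 195 days. The 3 Wagyu-cross newborns held the 3 lowest of these values and the 3 Piedmontese-cross newborns the 3 highest. CRY2 was likewise at 11.15 to 11.70 in the Wagyu-cross and 11.87 to 12.60 in the Piedmontese-cross newborns. In every other clock gene the crosses overlapped at birth. The crosses were not tested at birth, and the share of all genes that separate them in this way was not counted. PER1, which also answers to glucocorticoids, rose by 1.04 ± 0.29 (adjusted p = 0.00155). With channels only centred PER1 was at 1.93 (adjusted p = 0.000384), with the median of all genes at 0.20, while CLOCK (0.63, adjusted p = 0.153) and NR1D2 (0.38, 0.082) were not called.

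CRY2 moved the other way at birth. It fell by 1.51 ± 0.21 (adjusted p = 1.52e-08), and the newborns, at 11.15 to 12.60, lay below every fetus of 195 days. At 3 months it was at 13.12 to 14.24, above every newborn, a rise of 1.86 ± 0.18 (adjusted p = 1.5e-11) and a factor of 3.62. PER3 took the same course at a dim level, falling by 0.73 ± 0.30 (adjusted p = 0.0279) at birth and rising by 0.81 ± 0.26 (adjusted p = 0.00871) afterwards. Its newborn levels of 6.58 to 6.97 were below all animals of 195 days and 3 months, and on the processed signals the changes were -2.83 and 2.75. The fall of PER3 at birth was not called under quantile normalization (adjusted p = 0.0503), with channels only centred (0.191), without array 2 (0.123), or with 2 fetuses of 195 days whose codes differ only in a final letter taken as 1 animal (0.0566).

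PER2 was scattered among newborns. It was at 9.58, 10.71, 11.02, 12.91, 13.23 and 13.46, where the 5 fetuses of 195 days were at 10.71 to 11.37. Of the 6 calves 3 lay above all these fetuses, 1 lay below them all and 2 lay within their range. The SD of PER2 was 1.60 at birth and 0.246 at 195 days, and the step was not called (0.75 ± 0.41, adjusted p = 0.101). The 3 newborns with high PER2 were also those with the highest PER1, at 16.32, 16.35 and 15.79. The other 3 had PER1 at 14.76 to 15.45. The hour of each birth sample is not given.

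From birth to 3 months 5 of 9 clock genes were called, against 48.1% of all genes (23.5% up, 24.6% down; 33.2% of the calls were up rather than 48.8% when channels were only centred). ARNTL fell by 0.79 ± 0.21 (adjusted p = 0.00135) and CLOCK fell by 0.50 ± 0.14 (adjusted p = 0.00305), while CRY2, PER3 and NR1D2 rose. NR1D2 rose by 0.44 ± 0.11 (adjusted p = 0.000621), after a rise of 0.28 ± 0.12 at birth (adjusted p = 0.0397) that was not called without array 2, 3 or 4 (0.203, 0.087 and 0.0501). CLOCK was not called in this step without array 3 (-0.33, adjusted p = 0.0695). When channels were only centred, PER3 (0.71, adjusted p = 0.0774), NR1D2 (0.39, 0.0953) and CLOCK (-0.74, 0.109) were not called. PER2, at 0.77, was called with array number as a block (0.0481). Birth and 3 months were on different slides, so slide and age cannot be told apart in this step.

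At birth other gene groups moved as well, in a step that called 65.7% of all genes. All 8 tested genes of the glucocorticoid-responsive list, which includes PER1, rose (median 3.39), with FKBP5, a chaperone of the receptor, at 5.93 ± 0.39. Of 15 further clock regulators 10 rose and 3 fell (median 0.65): NFIL3, a repressor at the sites DBP binds, rose by 2.07 ± 0.34, RORA, the activator of ARNTL, by 1.55 ± 0.20, and TEF, a relative of DBP, fell by 0.76 ± 0.14. Of 10 clock outputs 7 rose and 2 fell, and of 8 immediate early genes 5 rose and 1 fell. Both tested haemoglobin genes fell (median -4.92), their mean level going from 13.78 to 15.02 in the fetuses to 8.92 to 9.80 in the newborns, and 5 of 6 fibroblast genes, 3 of 3 genes of dividing cells and 4 of 5 endothelial genes fell. The part of these cells in the clock gene changes was not tested.

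**Figure D2:**
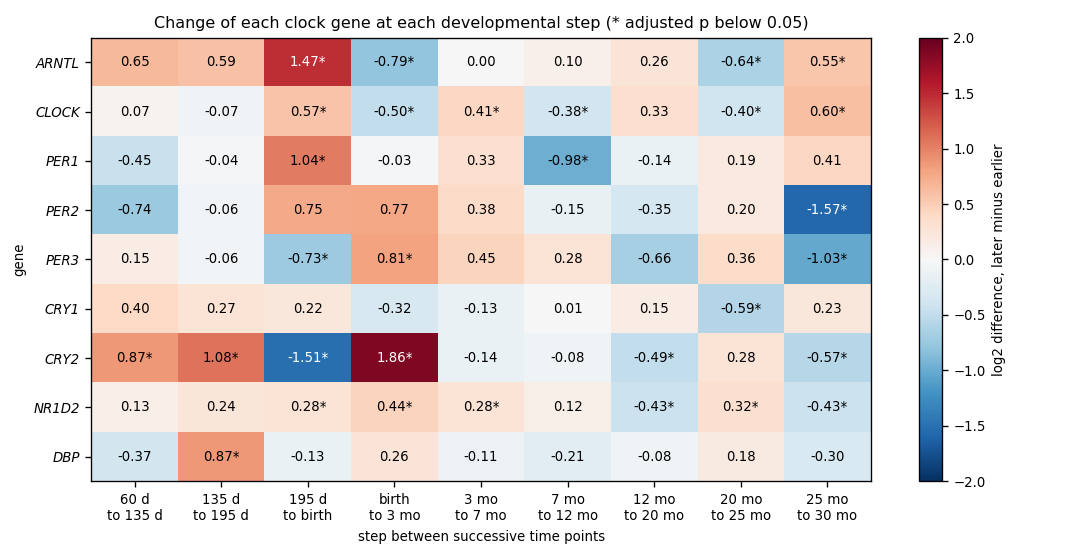
Change of each clock gene (rows) at each of the 9 steps between successive time points (columns; d, days of gestation; mo, months), as a log2 difference, later minus earlier, printed in each cell and coloured from blue (fall) to red (rise); a star marks an adjusted p below 0.05. Stars stand in 30 of the 81 cells, 6 of them at birth and 6 between 25 and 30 months, and CRY2 has the largest rise, 1.86.

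The next question was whether clock gene levels stayed level after birth. Over the 6 ages 8 of 9 clock genes were called, all but DBP (adjusted p = 0.0774), against 63.9% of all genes. The range of the age means was 1.87 in PER2, 1.49 in PER3, 1.11 in PER1, 1.00 in CRY2, 0.64 in ARNTL, 0.60 in CLOCK, 0.59 in CRY1, 0.54 in NR1D2 and 0.51 in DBP. ARNTL and CRY1 were not called without array 3 of each time point (adjusted p = 0.12 and 0.111), while DBP was called with animal as a fixed term (0.0265), without array 4 (0.0468) and with array number as a block (0.00189). PER1 had no value in 2 of 8 animals at 3 months, where its spots were flagged as outliers.

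Steps up to 20 months were modest. From 3 to 7 months 2 of 9 genes were called (17.4% of all genes): CLOCK rose by 0.41 ± 0.11 (adjusted p = 0.008), in 7 of 7 animals measured at both ages, and NR1D2 by 0.28 ± 0.08 (adjusted p = 0.0158). From 7 to 12 months 2 were called (11.6%): PER1 fell by 0.98 ± 0.23 (adjusted p = 0.00301), in 5 of 5 animals, and CLOCK fell by 0.38 ± 0.13 (adjusted p = 0.0387). From 12 to 20 months 2 were called (11.1%): NR1D2 fell by 0.43 ± 0.09 (adjusted p = 0.00155) in 6 of 6 animals, with values that did not overlap between the ages, and CRY2 fell by 0.49 ± 0.16 (adjusted p = 0.0407). Without array 3 PER1 (-0.73, adjusted p = 0.118), NR1D2 from 12 to 20 months (0.0764) and CRY2 (0.19) were not called, and without array 2 CLOCK from 3 to 7 months was not (0.0808). The fall of CLOCK from 7 to 12 months was not called with any 1 array number left out (0.0559 to 0.146), nor NR1D2 from 3 to 7 months without array 2, 3 or 4 (0.0565 to 0.0682). Over all alternative settings this fall of CLOCK lost its call in 8, this rise of NR1D2 in 5 and the fall of CRY2 in 6. With channels only centred none of these 6 was called: CLOCK and NR1D2 were at 0.72 and 0.23 from 3 to 7 months, PER1 and CLOCK at -1.48 and -0.95 from 7 to 12 months, and NR1D2 and CRY2 at -0.34 and -0.13 from 12 to 20 months. Under that setting 68.3%, 31.8% and 60% of the calls in the 3 steps were upward rather than 54.3%, 59.8% and 39.8%. With array number as a block CLOCK (0.36, adjusted p = 0.0154) and PER3 (-0.64, 0.0142) were called as well from 12 to 20 months.

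From 20 to 25 months 4 of 9 clock genes were called, against 11.6% of all genes. ARNTL fell by 0.64 ± 0.16 (adjusted p = 0.00638), in 7 of 8 animals, CRY1 by 0.59 ± 0.14 (adjusted p = 0.00513), in 7 of 8, and CLOCK by 0.40 ± 0.11 (adjusted p = 0.0139), in 8 of 8. NR1D2 rose by 0.32 ± 0.08 (adjusted p = 0.0088). These ages were on different slides, which cannot be told apart from age. Without array 3 of each time point none of the 4 was called (ARNTL -0.53, adjusted p = 0.119; CRY1 -0.49, 0.137; CLOCK -0.31, 0.125; NR1D2 0.33, 0.0798). Over all alternative settings CLOCK and NR1D2 each lost the call in 5, and ARNTL and CRY1 each in 1. With channels only centred the median of all genes moved by -0.30 and 2.27% of calls were upward rather than 44.5%. Relative to that shift ARNTL, CRY1, CLOCK and NR1D2 were at -0.74, -0.96, -0.73 and 0.55. Before the shift is taken off NR1D2 was at 0.25 and was not called (adjusted p = 0.203).

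The step from 25 to 30 months held 6 calls, in the same 8 animals and on slides that held both ages. Each age had its own positions on these slides, so position and age cannot be told apart. The same holds for the other developmental time points that shared slides. Of the 9 clock genes 2 rose and 4 fell, against 20.9% of all genes called, 11.7% up and 9.23% down. ARNTL and CLOCK, the activators, rose. Of the genes that act against them PER2, PER3, CRY2 and NR1D2 fell, whereas PER1 and CRY1 were not called, and were called as higher with channels only centred, a setting in which CRY2 was at 0.51.

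PER2 had the largest fitted change of the 9 in this step on this scale. At 25 months its levels were 11.86 to 13.20 (median 12.72) and at 30 months 10.22 to 11.72 (median 11.12), so that every animal was lower at 30 months than any had been at 25. Within animals the changes ran from -2.51 to -0.92, in 8 of 8 downward. The mean fell by 1.57 ± 0.28 (adjusted p = 4.76e-05), a factor of 2.98. On the 2 slides taken singly the differences were -1.87 and -1.28.

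PER3 fell in 8 of 8 animals as well, from a median of 8.23 to one of 7.07, by 1.03 ± 0.20 (adjusted p = 0.000195). Of its 8 channels 6 were well above background at 25 months and 3 at 30 months, and on the processed signals the change was -2.61. NR1D2 fell in 8 of 8, from 7.98 to 8.46 down to 7.52 to 7.84 with no overlap, by 0.43 ± 0.08 (adjusted p = 0.00015), or by 0.76 on the processed signals. CRY2 fell in 8 of 8, from a median of 13.25 to one of 12.65, by 0.57 ± 0.14 (adjusted p = 0.00298), with overlapping groups.

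CLOCK rose in 8 of 8 animals, from a median of 10.62 to one of 11.34, by 0.60 ± 0.11 (adjusted p = 7.23e-05). ARNTL rose in 7 of 8, from 9.34 to 9.97, by 0.55 ± 0.16 (adjusted p = 0.0107). Both groups of values overlapped. PER1 differed by 0.41 ± 0.20 (adjusted p = 0.138), with 4 animals up and 4 down, CRY1 by 0.23 ± 0.14 (adjusted p = 0.281) and DBP by -0.30 ± 0.17 (adjusted p = 0.231).

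**Figure D3:**
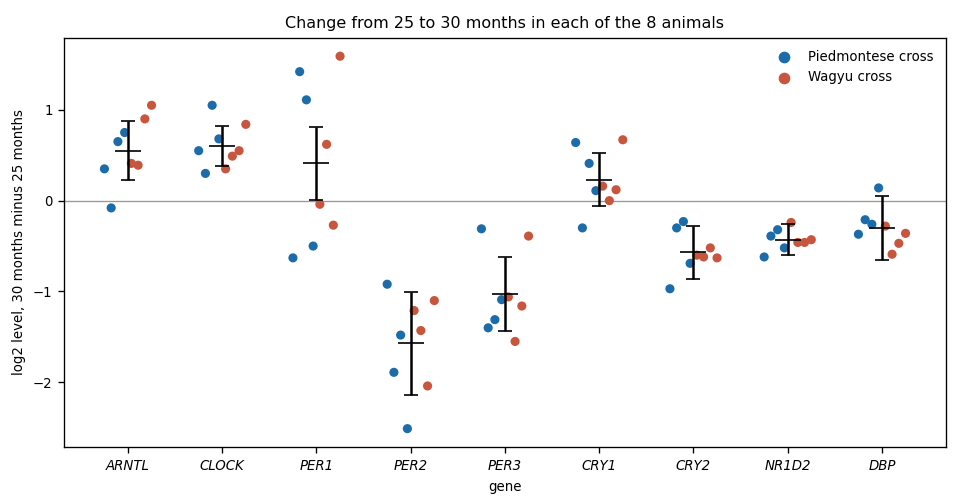
Change in log2 level from 25 to 30 months (vertical axis, 30 months minus 25 months) for each clock gene (horizontal axis), with a point for each of the 8 animals (blue, Piedmontese cross; red, Wagyu cross) and a black bar for the fitted difference with its 95% confidence interval. All 8 points lie below 0 for PER2, PER3, CRY2 and NR1D2 and all 8 above 0 for CLOCK, while those of PER1 lie on both sides.

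This step depended on the scaling. At 25 months 54.4 to 68.0% of probes per channel were well above background and 13 to 316 spots per array were flagged, against 61.9 to 71.1% and 9 to 47 spots at 30 months. When each channel was only centred on its median, the median of all genes moved by 0.48 in this step and 73.2% of its calls were upward rather than 55.9%. Relative to that shift ARNTL and CLOCK were higher by 0.72 and 1.10, and PER2, PER3 and NR1D2 changed by -1.04, -1.38 and -0.87. PER1, CRY1 and DBP were at 1.01, 0.72 and 0.29 and were then called as higher (adjusted p = 0.00156, 0.00156 and 0.0487 before the shift is taken off). CRY2 was at 0.03, so that its fall depends on the normalization, and PER2 without that shift taken off was at -0.56 (adjusted p = 0.236). Without array 2 or 3 ARNTL was at 0.46 and 0.50 and not called (adjusted p = 0.0957 and 0.0521).

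Among the other clock regulators 4 of 15 rose and 3 fell from 25 to 30 months (median -0.06), beside 20.9% of all genes called. NFIL3 rose by 0.83 ± 0.23, CSNK1D, a period kinase, by 0.52 ± 0.08, RORA by 0.44 ± 0.14 and FBXW11, a ubiquitin ligase subunit, by 0.33 ± 0.11. BHLHE40, BHLHE41 and TEF fell by 0.72 ± 0.23, 0.43 ± 0.15 and 0.39 ± 0.10. Of the 10 outputs 5 rose and 2 fell, PDK4 by 4.11 ± 0.45 and NAMPT, an enzyme of NAD synthesis, by 1.41 ± 0.15 upward. Of the 8 glucocorticoid-responsive genes 4 rose, FKBP5 by 1.43 ± 0.27 among them, and 1 of 8 immediate early genes did.

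Markers of blood moved in the same step. Both haemoglobin genes fell. HBB fell by 3.07 ± 0.32, and their mean level was 10.36 to 12.78 at 25 months and 7.30 to 9.26 at 30 months, with no overlap. Of 5 leukocyte genes 4 fell (mean level 8.91 to 9.73 against 8.61 to 8.99), as did 3 of 3 genes of dividing cells and 2 of 6 fibroblast genes. Of 5 tested fat cell genes 1 fell, of 5 endothelial genes 1 rose, and of 7 muscle fibre genes 0 were called (mean level 16.69 to 17.06 against 16.48 to 16.90). The part of blood cells in the clock gene changes was not tested.

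No clock gene separated the crosses after birth. Of 9 genes 0 were called, against 0.0202% (3 genes) of all genes, and 0 of 9 had an unadjusted p under 0.05, as had 500 of all genes. The count over all genes depended on the fit, at 191 with no animal block and 1169 in ratios within arrays. Both of these fits take repeated samples of an animal as independent. Of the 9 clock genes 0 were called under every alternative that could be fitted. Piedmontese minus Wagyu differences ran from -0.13 (CRY2, 95% interval -0.44 to 0.17) to 0.13 (NR1D2, -0.05 to 0.31). The change with age did not differ detectably between the crosses either, with 0 of 9 clock genes and 0% of all genes called by the limma F test.

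The animals of an age also varied among themselves, and some clock genes varied together. Over the 46 post-natal values, each taken as its distance from the mean of its age and cross, PER2 and PER3 had a Pearson r of 0.59 and PER1 and CRY2 of 0.53. ARNTL went against PER2 (-0.52) and PER3 (-0.40) and with CRY1 (0.45), and CLOCK went against NR1D2 (-0.47). ARNTL and CLOCK had 0.16. These values come from 9 animals and share slides and arrays, so they are a description. Over the means of the 26 conditions ARNTL and PER2 had 0.24, and CRY2 and NR1D2 had the highest value of any pair, 0.77.

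The genes most like 4 of the clock genes, those with the widest range over the ages, were found by the same 2 measures. Over the 46 values PER2 was most like SLC20A1 (0.72), PER3 like CHD1L (0.88), PER1 like SMARCD2 (0.76) and CRY2 like a sequence tag with no gene name (0.64). Over the 26 conditions PER3 was most like MRC1 (0.85), with TEF among the next (0.83), PER1 was most like KLF4 (0.86), CRY2 like DST (0.90) and PER2 like an unnamed tag (0.88).

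The last question was whether restricted feeding moved the clock genes. At none of the 3 times was a clock gene called between the diets. Of all genes 3.87% were called at time 0, 20.1% at time 1 and 0% at time 2. With channels only centred 76.1% of the calls at time 1 were upward in restricted animals rather than 51.7%. Unadjusted p was under 0.05 for 1, 3 and 0 of the 9 genes at these times, and for 2656, 5000 and 243 of all genes.

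ARNTL came closest. At time 1 its levels were 9.38, 9.69 and 10.16 in the 3 restricted animals. In the 4 animals on the growth diet they were 8.49, 8.65, 8.96 and 9.14, with no overlap. The restricted animal was higher on 4 of 4 arrays, which held only 3 restricted animals and so are not independent. The difference was 0.94 ± 0.33 (95% interval 0.24 to 1.64), and the adjusted p of 0.0554 missed the threshold. It passed with channels only centred, with no animal block, in ratios within arrays and with time 1 fitted on its own (adjusted p = 0.0215, 0.0431, 0.038 and 0.0335). The ratios were fitted without an animal block, so an animal on several arrays enters more than once. Without array 1 the difference was 0.61 (adjusted p = 0.32). Over all alternatives the adjusted p ran from 0.0215 to 0.32. At time 0 the difference was 0.09 ± 0.31 and at time 2 it was 0.03 ± 0.43. The change in the diet difference from time 0 to 1 was 0.85 ± 0.42 (adjusted p = 0.199).

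The period genes, the cryptochromes, NR1D2 and DBP were not called at time 1 in the main setting either. Whether their values follow from ARNTL was not tested. CRY2 at time 1 was 13.43, 13.46 and 13.55 in restricted animals and 13.47 to 14.91 on the growth diet, a difference of -0.68 ± 0.31 (adjusted p = 0.136). DBP was 11.25, 11.44 and 11.73 against 11.73 to 12.41, a difference of -0.49 ± 0.20 (adjusted p = 0.103). The restricted animal was lower on 4 of 4 arrays, which held only 3 restricted animals. In ratios within arrays and with array number as a block DBP was called (adjusted p = 0.00717 and 0.012). In both of these fits an animal on several arrays enters more than once. CRY1 differed by 0.28 ± 0.16 (adjusted p = 0.215), and was called with centring only (0.59, adjusted p = 0.0398) and with array number as a block (0.35, 0.0438). PER1, PER2, PER3 and NR1D2 differed by -0.38, 0.32, 0.36 and -0.38, with 95% intervals that include 0. PER3 at time 0 differed by 0.65 ± 0.28 (adjusted p = 0.233). At time 2, with 2 animals a group, PER1 was 15.17 and 15.48 against 15.92 and 15.97, with a difference of -0.67 ± 0.40 and an adjusted p of 1. PER1 was lower on all 4 arrays, but these paired the same animals with each other and so add nothing independent. CRY1 (means 11.24 restricted, 11.03 growth) and CRY2 (13.39 and 13.67) did not overlap between the diets at time 2 either. The share of all genes that separate in this way was not counted.

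Individual animals weighed on 2 genes. CLOCK in 1 growth-diet animal was at 9.35 at time 0 and 8.71 at time 1, where the others were at 10.73 to 11.53 and 10.74 to 11.37. Without it the growth-diet mean at time 1 was 11.29 rather than 10.65, against 11.01 on the restricted diet, and so on the other side of it. NR1D2 in another growth-diet animal was at 8.73, 9.75 and 9.04 at the 3 times, where the other animals were at 7.35 to 8.43, 7.51 to 8.12 and 7.61 to 8.05. Each stood on 1 side of all other animals at the times given.

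In the main setting the diet difference was not called as changing with time for any clock gene. From time 0 to 1, 0 of 9 were called against 12% of all genes, and from time 1 to 2, 0 of 9 against 2.64%. Unadjusted p was under 0.05 for 2 and 0 of the 9, and for 4066 and 2628 of all genes. CRY1 had the smallest p from time 0 to 1, with 0.54 ± 0.20 (adjusted p = 0.0845), and was called with centring only, in ratios within arrays and without array 3 (adjusted p = 0.0428, 0.0371 and 0.0252), while DBP was called in ratios within arrays (0.0242). With array number as a block both were called from time 0 to 1 (CRY1 0.61, adjusted p = 0.00439; DBP -0.65, 0.00498), and DBP from time 1 to 2 (0.49, 0.0271).

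Within the restricted group DBP fell from time 0 to 1 and rose again to time 2. It was at 11.85 to 12.56 at time 0, 11.25 to 11.73 at time 1 and 12.40 and 12.57 at time 2, with no overlap between neighbouring times. It fell by 0.66 ± 0.19 (adjusted p = 0.0291) and rose by 0.97 ± 0.23 (adjusted p = 0.0242). DBP was the 1 clock gene of 9 called at either step, against 15.3% and 4.66% of all genes. On the growth diet it went from 11.67 to 12.36 at time 0 through 11.73 to 12.41 at time 1 to 12.44 and 12.55 at time 2, and changed by -0.05 ± 0.17 and 0.51 ± 0.22 (adjusted p = 0.899 and 0.481). No clock gene was called within the growth diet, against 4.21% of all genes from time 0 to 1 and 0% from time 1 to 2; PER3 came closest, with 0.94 ± 0.26 (adjusted p = 0.0519). The 3 times were on 3 separate slides, so slide and time cannot be told apart, and the test of the diet difference over time did not call DBP (adjusted p = 0.134 and 0.502). Without array 2 or 4 of each time neither DBP change was called (adjusted p of 0.0813 and 0.142 for the fall, 0.0566 and 0.171 for the rise), nor was the fall without array 1 (0.0787) or with no animal block (0.0564). With array number as a block both DBP changes were called, as were CRY1 from time 0 to 1 (0.48, adjusted p = 0.00239) and PER3 from time 1 to 2 (-1.09, 0.011) on the restricted diet, and PER3 from time 0 to 1 (0.94, 0.0248) and DBP from time 1 to 2 (0.52, 0.0147) on the growth diet.

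**Figure D4:**
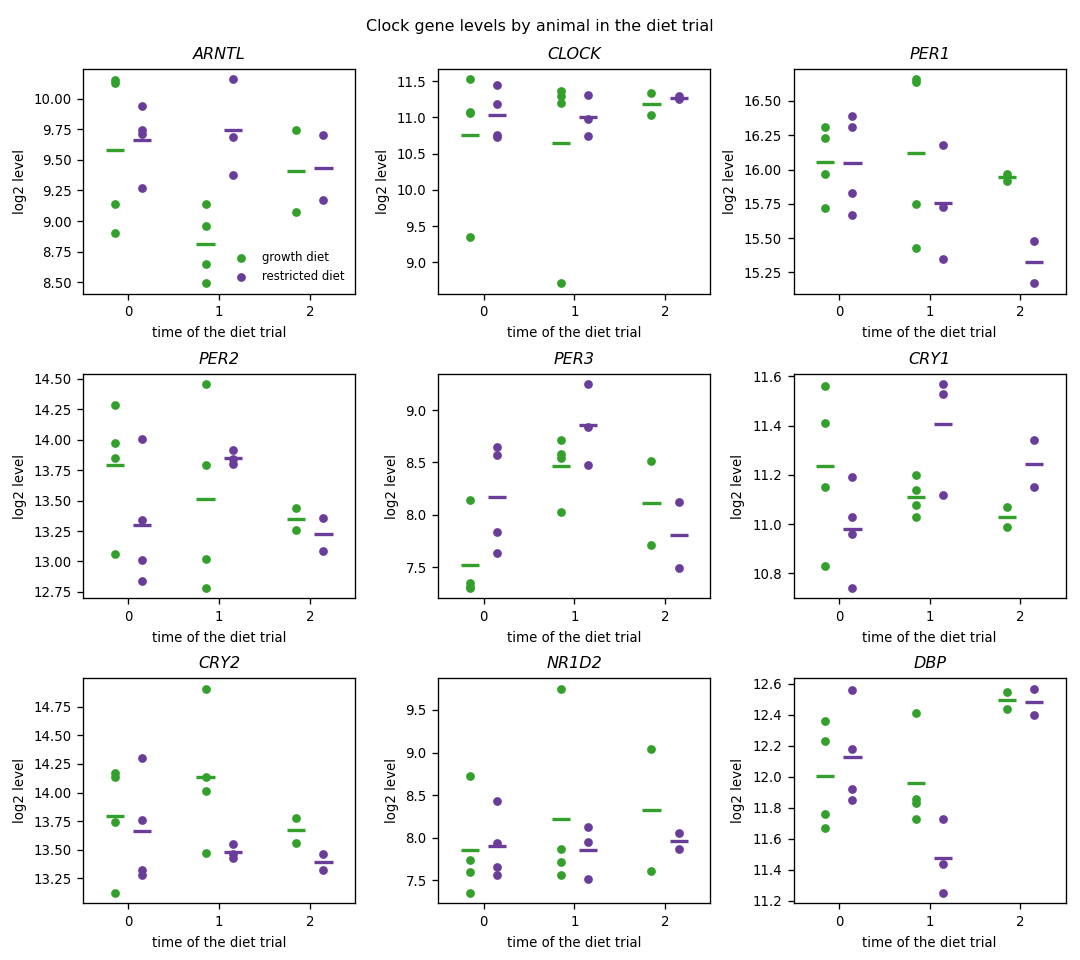
Level of each clock gene (log2 intensity, vertical axis) in each Belmont Red animal at times 0, 1 and 2 of the diet trial (horizontal axis), with green points for the growth diet, purple points for the restricted diet and a bar at each mean. At time 1 the restricted animals lie above the growth-diet animals for ARNTL, with means of 9.74 and 8.81, and 1 green point lies far below the others for CLOCK.

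Of the other clock regulators 1 of 15 was higher and 2 lower in restricted animals at time 1. This share is near that of all genes called at this time, 20.1%. RORA was higher by 1.37 ± 0.27, HLF lower (-1.16 ± 0.19) and BHLHE41 lower (-0.98 ± 0.25). Of the 10 outputs 3 were lower, UCP3 (-2.11 ± 0.36), NOCT, a rhythmic phosphatase (-1.11 ± 0.33), and PPARGC1A (-0.61 ± 0.20). The glucocorticoid-responsive list had 1 of 8 called, GLUL, higher by 0.91 ± 0.31, and the immediate early list 0 of 8. On the growth diet 7 of 8 immediate early genes and 3 of 8 glucocorticoid-responsive genes fell from time 0 to 1, and on the restricted diet 0 of 8 in either list. Of all genes 4.21% were called in this step on the growth diet and 15.3% on the restricted diet. FOS fell by 4.52 ± 0.83 on the growth diet. At time 0 the diets already differed in these genes: 6 of 8 immediate early genes were lower in the restricted animals, FOS (-4.01 ± 0.90) among them, with mean levels of the list of 11.03 to 11.25 against 12.17 to 14.55. At that time 3.87% of all genes were called between the diets. Of 15 further clock regulators 2 were higher and 1 lower in restricted animals. BHLHE41 (0.97 ± 0.23) was among the higher, and NFIL3 (-1.71 ± 0.36) was the lower. Of 10 outputs 1 was called, USP2, lower (-0.60 ± 0.14), and of 8 glucocorticoid-responsive genes 0 were.

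Cell markers differed between the diets at time 1 too, where 20.1% of all genes were called. All 7 tested muscle fibre genes were called, 6 lower and 1 higher in restricted animals (mean level 15.32 to 15.78 against 16.82 to 17.90), 4 of 6 fibroblast genes were lower (9.33 to 10.04 against 11.75 to 12.98), 3 of 5 endothelial genes and 3 of 3 genes of dividing cells were lower, and 0 of 5 fat cell, 0 of 5 leukocyte and 0 of 2 haemoglobin genes were called. Their part in the clock gene values was not tested.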

How the data were processed

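The authors labelled muscle RNA with Cy3 and Cy5, placed the crosses or diets in either dye and deposited, per spot and channel, the mean intensity, the median background intensity, processed signal intensities and flags (Agilent Feature Extraction 9.5.1 per the labels). Genome build is not given in the sources used here. Background was corrected by normexp (offset 50) in limma 3.58.1 under R 4.3.3, followed by loess within and Aquantile between arrays. Control spots had no weight in the loess, and control and outlier spots were left out after normalization. Spots of a probe were averaged on the log2 scale, probes well above background in at least 24 of 96 channels were kept (15822 of 21475), probes of a gene were averaged (14857 genes) and a dye effect per gene was removed.

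Each animal gave 1 value per time point, 64 in development and 19 in the diet trial. limma was fitted over all conditions of a trial with animal as a random block (correlation 0.284 and 0.158), with Benjamini-Hochberg adjustment per comparison. P-values of this fit measure the spread of animal values about the mean of their condition, with a common correlation between values of the same animal. In steps between times that shared animals this includes the spread within animals. At 60 days, with 1 animal per cross, a condition has no spread of its own, so p-values that use this age rest on the spread at other ages. The number of animals limits the precision, and so does the number of arrays. The fit was tested on simulated data. All clock genes with a probe are named, from the other lists only some of those past the threshold, and for likeness the 4 with the widest post-natal range. The members and lists were chosen with earlier results of these data known. The log ratios of the scanner were not used.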

Additional observations from a re-analysis of the deposited data

Results flagged for a closer look

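Within a time point, with both crosses together in development and each diet apart in the trial, 108 groups of 4 to 8 animals were examined for a clock gene value far from the others (the gap to the nearest value against Dixon's limit), which chance exceeds in about 1 of 20 groups, and 10 exceeded it. In the growth-diet group at time 1, CLOCK was at 8.71 in 1 animal (next value 11.20) and NR1D2 at 9.75 in another (next 7.87), and at time 0 PER3 was at 8.14 in 1 animal (next 7.35). At 135 days CRY1 was at 10.27 (next 11.16) and CRY2 at 11.66 (next 12.28), both in the fetus low in muscle genes, and at 195 days DBP was at 12.05 in 1 fetus (next 12.75). After birth NR1D2 was at 8.62 in 1 animal at 3 months (next 7.88), at 8.56 at 12 months (next 8.27) and at 8.46 at 25 months (next 8.20), each time in the same Piedmontese-cross animal, and PER1 was at 14.72 in 1 animal at 12 months (next 15.08).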

How the results depend on the processing

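Counts of clock genes called were recomputed under 20 alternatives, 1 of them chosen after seeing the data (the 135-day fetus left out); differences within slides were added as well, as values without a test. With each channel only centred on its median, calls over the 9 developmental steps numbered 15 rather than 30, calls between the diets at time 1 numbered 2 rather than 0, those of the diet difference from time 0 to 1 numbered 1 rather than 0, and those within a diet 1 rather than 2. CRY2 from 25 to 30 months then turned to 0.51. The cause was not tested, except that this setting leaves the shape of the intensities as it was. At time 1 the diets gave 1 call with no animal block, 2 with the replicate block, 2 in ratios within arrays and 1 with each time fitted on its own. The ratios within arrays were fitted without an animal block, so repeated samples of an animal enter as independent. The diet difference gave 2 calls from time 0 to 1 and 1 from time 1 to 2 with the replicate block, and 2 from time 0 to 1 in ratios within arrays. Within a diet there was 1 call with no animal block, 6 with the replicate block and 1 with animal as a fixed block.

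Leaving out the arrays of 1 number in turn gave 18 to 29 calls over the developmental steps (18 without replicate 3), 6 to 7 between fetal and post-natal ages, 6 to 9 over the post-natal ages, 0 to 1 for the diet difference from time 0 to 1 and 0 to 2 within a diet. In development the array number marks the slide, alone up to 20 months and in pairs of numbers at 25 and 30 months, and arrays of the same number deviated together more than others (mean correlation 0.258, 0.349 and 0.45 in the 3 sets of slides, against -0.13, -0.116 and -0.149 between numbers). In the trial the 4 arrays of a time shared a slide (0.0588 against -0.0195). The replicate block, fitted to single channels so that an animal on several arrays enters more than once, ended no call of a clock gene over the developmental steps, of which it made 35. The comparisons of the crosses, and of the diets at times 0 and 2, gave 0 calls under every alternative that could be fitted. Promoter motifs were not examined. The 2 dim genes, PER3 and NR1D2, are limited by background.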
